A study of Mus musculus with 5 samples.

Results

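The HoxB cluster on mouse chromosome 11 was examined by the methylation of its CpG cytosines, that is, cytosines followed by guanine. All positions in a 195-kb window from the Hoxb13 end to the Hoxb1 end were taken. Those listed run over chr11:96048350-96236056 in mouse genome build mm9. Of the 2328518 autosomal positions listed with at least 10 reads in any library, 1434 lay in this window. Of the 280635 autosomal positions with that depth in all 5 libraries, 176 lay there, and comparisons between the groups used these 176. Each strand of a CpG is a position of its own, and the CpGs counted in tiles and classes below are such positions.

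The study compared the DNA methylation of early blood cells between mice carrying Idh1-R132H and control mice. Idh1 encodes the cytosolic isocitrate dehydrogenase. The R132H change is found in leukaemia and glioma and gives the enzyme a new product, 2-hydroxyglutarate, which can inhibit the TET enzymes that oxidise methylated cytosine. The 3 knock-in libraries, called KI1, KI2 and KI3 here, came from LSK cells of mice with Idh1-R132H and the 2 wild-type libraries, WT1 and WT2, from LSK cells of mice without it. All 5 shared the strain background, 129Ola x C57Bl/6J, and the tissue, bone marrow. LSK cells lack markers of mature blood lineages and bear Sca1 and Kit on their surface, and they hold stem cells together with several kinds of progenitor. The labels used here give no zygosity, age, sex or Cre driver for the mice, and do not say whether each library came from a separate animal, so the spread between libraries may be technical in part. No RNA or protein was measured here, so the cell type could not be checked against its markers.

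Hox genes encode homeodomain transcription factors that set position along the body axis, and in each cluster their order on the chromosome follows the order in which they are used along that axis. In embryonic stem cells and many adult tissues the CpG-dense DNA of these clusters carries little methylation and is held instead by Polycomb and Trithorax complexes. Several HoxB genes are active in blood stem cells, and forced Hoxb4 expression expands these cells in culture. In the RefSeq gene table for GRCm38.p6 the order through the cluster was Hoxb13, Mir196a-1, Hoxb9, Hoxb8, Hoxb7, Hoxb5os, Hoxb6, Hoxb5, Hoxb3, Mir10a, Hoxb4, Hoxb3os, Hoxb2 and Hoxb1, besides 5 non-coding or pseudogene entries between Hoxb13 and Mir196a-1. Hoxb13 is the posterior member, Hoxb5 to Hoxb9 are central and Hoxb1 to Hoxb4 are anterior. Hoxb5os and Hoxb3os are non-coding RNAs, and Mir10a and Mir196a-1 are microRNA genes that lie between Hox genes.

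A genome or gene annotation of build mm9 was not used here, so genes were placed only where the spacing of the CpGs in a RefSeq promoter sequence matched the spacing of the listed positions. Of the 4 promoter sequences available for the cluster, 2 could be placed. They are printed because they tie the measured positions to genes and because they differ in CpG content. Capitals mark the CpGs listed with at least 10 reads in at least 1 library. The sequences are RefSeq's, in build GRCm38.p6, 5′ to 3′ on the strand of the gene. Hoxb3os is on the minus strand at chr11:96353345-96353644 of that build and covers 250 bases before the start and 50 after it. Hoxb1 is on the plus strand at chr11:96365508-96365757 and is shown for the 250 bases before the start.

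Hoxb3os: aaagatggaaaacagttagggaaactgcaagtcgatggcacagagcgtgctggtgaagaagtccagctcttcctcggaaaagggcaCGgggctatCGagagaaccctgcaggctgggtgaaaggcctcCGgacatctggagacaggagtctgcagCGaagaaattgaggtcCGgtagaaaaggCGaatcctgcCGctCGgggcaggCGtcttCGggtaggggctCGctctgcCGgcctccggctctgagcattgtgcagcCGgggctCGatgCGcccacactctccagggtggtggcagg

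Hoxb1: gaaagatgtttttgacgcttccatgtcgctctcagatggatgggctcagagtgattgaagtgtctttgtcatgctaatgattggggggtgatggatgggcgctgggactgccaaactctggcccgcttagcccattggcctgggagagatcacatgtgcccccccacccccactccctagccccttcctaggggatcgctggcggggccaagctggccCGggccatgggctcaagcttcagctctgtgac

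The Hoxb3os sequence held 19 CpGs, of which 15 matched listed positions, and no listed position in the matched interval fell outside its CpGs. The next best placement on the chromosome scored 5. This put the sequence at chr11:96214659-96214958 in mm9, and in the RefSeq table the Hoxb3os start lies inside Hoxb2, a neighbouring anterior gene. The whole 300-base Hoxb1 promoter held 10 CpGs, of which 4 matched. It was placed at chr11:96226822-96227121 because this was the best match in the window and because its distance to the Hoxb3os promoter, 12163 bases, equalled that in the RefSeq table, so its placement rests on fewer positions. CCGG, the sequence cut by MspI and the same on both strands, occurred 5 times in the Hoxb3os promoter and 1 time in the Hoxb1 promoter, and 52.8% of the 32851 RefSeq promoters of this length contain it. The 1 capital in the printed Hoxb1 sequence lies in that CCGG. The promoters of Hoxb8 and Hoxb4 could not be placed, and values below are given by position.

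Depth differed between the libraries. KI1, KI2 and KI3 listed 853, 436 and 1297 HoxB positions, and WT1 and WT2 listed 313 and 893. Over the 176 shared positions the median coverage in the same order was 62.5, 24, 141, 18.5 and 36.5 reads. Of the 1434 positions, 470 were listed in 1 library only, and 341 of these in KI3, the deepest. In CpG-dense tiles of chromosome X, KI2 and WT1 had a mean level of 24.1% each, against 2.94% to 3.82% in the other 3 libraries. These libraries that stand apart are the 2 shallowest and lie 1 in each group. In dense autosomal tiles outside HoxB, KI2 and WT1 had 3.52% and 2.95%, against 3.08% to 3.44% in the other 3 libraries. They thus stood apart on chromosome X and not in those tiles. The labels used here give no sex, and the cause of the gap was not tested.

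The finest view along the cluster came from the 3 deepest libraries, KI1, KI3 and WT2, which shared 686 positions. Their mean levels over these positions were 19.7%, 19.2% and 18.1%. Of the 195 tiles of 1 kb in the window, 106 held a listed position and 50 held at least 3 of the 686. By the mean of the 3 libraries, 37 of these 50 tiles were low (under 20% methylated), 7 were intermediate (20% to 80%) and 6 were high (80% or more). Methylation along HoxB was thus mostly low, broken by separate high and intermediate stretches. A tile's level is the share of methylated among all methylated and unmethylated reads of its CpGs.

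From the Hoxb13 end, the first stretch of measured tiles was low, with 7 tiles and 47 CpGs over chr11:96051000-96064999 and tile levels of 0.519% to 8.97%. Then 2 high tiles followed within chr11:96092000-96110999. The tile at chr11:96092000-96092999 had 83.9% and 85.1% in the knock-in libraries and 76.0% in WT2, and the tile at chr11:96110000-96110999 had 94.4%, 94.1% and 91.9%. The DNA between them held no tile with enough CpGs. These are values of few CpGs, 6 and 5.

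The change from high to low was short. The tile at chr11:96112000-96112999, beginning 1 kb after the end of the high tile, had 5.73%, 5.93% and 3.74% over 21 CpGs. Beyond it lay 3 intermediate tiles within chr11:96121000-96130999, with mean levels of 27.2% to 50.8%. In the last of them, at chr11:96130000-96130999, the knock-in libraries had 34% over 97 reads and 44.2% over 231 reads, and WT2 had 74.2% over 66 reads, at 3 CpGs. With 1 wild-type library at that tile, the groups could not be compared.

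The longest run of low tiles was chr11:96131000-96166999. Its 18 measured tiles held 284 CpGs over 36 kb, and their mean levels ran from 0.093% to 12.3%. It was interrupted between its measured tiles: chr11:96163374 and chr11:96163416, whose tile had too few CpGs to count, had 95% to 100% and 89.5% to 100% in the 5 libraries, over 12 to 76 reads. The stretch included the tile with the most listed positions of the cluster, 88, at chr11:96133000-96133999. That tile had levels of 1.00%, 0.414% and 0.453% over 66 CpGs in the 3 deep libraries.

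Towards Hoxb1 the stretches were shorter. A low run of 4 tiles within chr11:96173000-96181999 was followed by the high tile at chr11:96194000-96194999, which had 85.6%, 86.8% and 87.9% over 23 CpGs. The low tile at chr11:96202000-96202999, with 1.65%, 0.261% and 0.725% over 8 CpGs, lay directly beside the high tile at chr11:96203000-96203999, with 82.5%, 91.1% and 93.8% over 19 CpGs. Methylation then stayed at 76.8% or more in the 3 measured tiles up to chr11:96207999, among them a tile of 38 CpGs at chr11:96207000-96207999 with 88.3%, 89.0% and 84.8%. At chr11:96213000-96214999, which holds the Hoxb3os start, it was again low over 57 CpGs. All 3 libraries showed these steps at the same tiles.

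**Figure D1:**
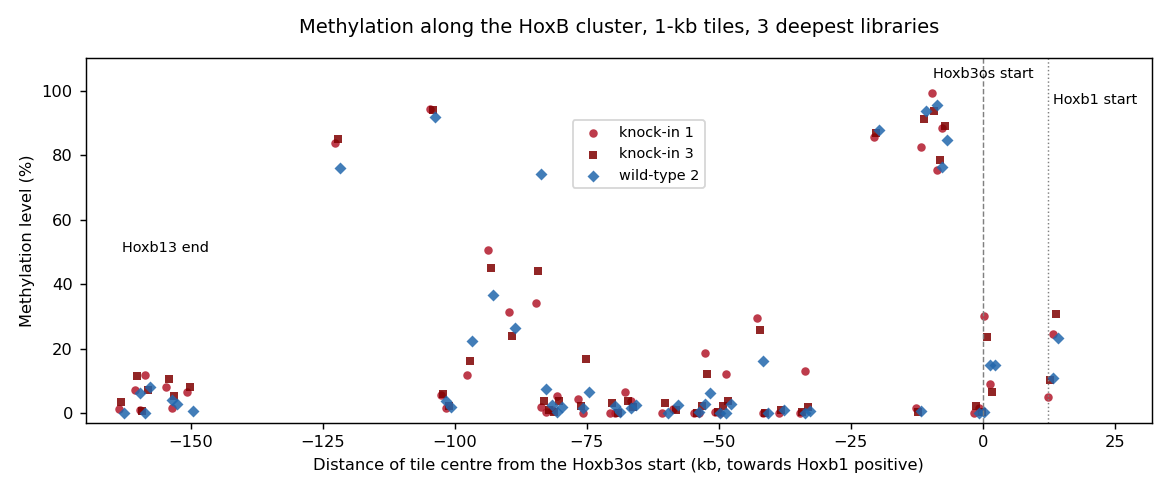
Methylation level (%) of 50 tiles of 1 kb along the HoxB cluster in the 3 deepest libraries, by distance of the tile centre from the Hoxb3os start in kb. Points of the 3 libraries are set slightly apart sideways, the broken line is the Hoxb3os start and the dotted line the Hoxb1 start. A reader should see the low stretch of 18 tiles in the middle of the cluster, with high tiles between it and the Hoxb3os start and again towards the Hoxb13 end.

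The Hoxb3os promoter was almost free of methylation. At the 16 positions shared by the deep libraries, 3 of 541 reads were methylated in KI1 (0.555%, 95% Wilson interval 0.189% to 1.62%). In KI3 it was 8 of 2010 reads (0.398%, 0.202% to 0.783%) and in WT2 it was 1 of 729 (0.137%, 0.0242% to 0.773%). The 3 intervals overlap. KI2 had 0 of 71 reads at 3 positions, which allows a level of up to 4.23%, and WT1 listed no position there. These intervals and limits cover counting error only, since reads copied by PCR need not come from separate molecules.

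The Hoxb1 promoter was read at 2 positions in each of 3 libraries, and no position was shared by KI1, KI3 and WT2. The level was 16.8% in KI3 (20 of 119 reads, Wilson interval 11.2% to 24.5%) and 3.33% in WT2 (1 of 30, 0.591% to 16.7%). KI2 had 0 of 22 reads, which allows up to 13.6%. Hoxb1, the most anterior gene of the cluster and known for its part in hindbrain patterning, therefore gave too few reads for a comparison of genotypes.

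Across the 176 positions shared by all 5 libraries, the group means lay close together. The mean level was 15.7%, 15.1% and 13.4% in KI1, KI2 and KI3, and 12.2% and 12.4% in WT1 and WT2. Every knock-in value exceeded the higher wild-type value. The means were 14.7% ± 1.19 (SD, n = 3) and 12.3% ± 0.166 (SD, n = 2), a difference of 2.40 percentage points. The exact permutation test, 2-sided over the 10 ways to choose 3 of 5 libraries, gave p = 0.2 (0.4 after Benjamini-Hochberg adjustment over 4 level comparisons). The smallest p this design allows is 0.1, so no such comparison can pass 0.05.

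In every library but KI3, most of these positions had no methylated read. At 0% were 91, 128 and 75 positions in KI1 to KI3, and 130 and 106 in WT1 and WT2. The counts at 0% run opposite to median coverage, with the most in the 2 shallowest libraries, and the part of depth in them was not tested. At 51 of the 176 positions no library had a methylated read.

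By the mean over all 5 libraries, 142 positions were low, 20 intermediate and 14 high. At the low positions the knock-in levels were 5.79%, 1.57% and 3.31% and the wild-type levels 2.23% and 2.60%. The groups overlapped, with a difference of 1.15 points (exact permutation p = 0.6, adjusted 0.6). It was 0.0291 points without KI1 and 2.14 points without KI2.

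The intermediate positions were the class in which the groups lay farthest apart. Membership of each class was set by the mean over the same 5 libraries, 3 of them knock-in. The compared values thus also chose the positions, and a position could become intermediate through high knock-in levels alone. The difference in this class and its p-value are not independent of that choice. Most of the 20 lie in 2 short stretches. These are all 7 shared positions of the tile at chr11:96121000-96121999, and the 3 each of the adjoining tiles at chr11:96215000-96215999 and chr11:96216000-96216999. Knock-in levels over the 20 were 36.1%, 55.7% and 33.1% and wild-type levels 22.4% and 26.9%. The knock-in libraries all lay above the wild-type ones, and KI2 was well above KI1 and KI3. The means were 41.6% ± 12.2 (SD, n = 3) and 24.7% ± 3.18 (SD, n = 2), a difference of 16.9 points (exact permutation p = 0.2, adjusted 0.4). It was 9.91 points without KI2 and 7.66 points without both KI2 and WT1.

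The high positions lay the other way. Knock-in levels were 86.5%, 93.8% and 86.9% and wild-type levels 98.3% and 91.1%, so that KI2 fell between the wild-type libraries. The difference was -5.62 points (exact permutation p = 0.3, adjusted 0.4). It was -2.03 points without WT1 and -9.21 points without WT2. At a minimum of 20 reads it was -9.73 points, but only the 6 positions of the tile at chr11:96194000-96194999 were then left in the class.

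**Figure D2:**
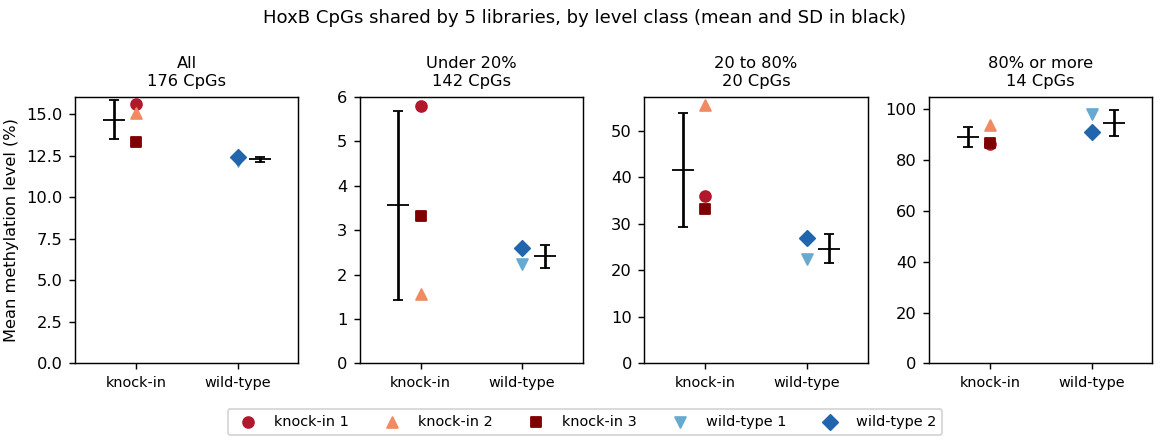
Mean methylation level (%) of each library over the HoxB CpGs shared by 5 libraries, for all 176 and for the low, intermediate and high classes. Coloured points are libraries and black marks the group mean with SD. The classes were set by the mean over the same 5 libraries. A reader should see the knock-in libraries above the wild-type ones at the 20 intermediate CpGs, from 33.1% to 55.7% against 22.4% and 26.9%, and overlap at the low and high CpGs.

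At the level of tiles, 22 tiles with 163 CpGs had at least 3 shared positions. By mean level 15 were low, 5 intermediate and 2 high. This is 68.2%, 22.7% and 9.09% of them, beside 63.5%, 6.36% and 30.2% of the 24297 other autosomal tiles. The knock-in mean was higher in 12 tiles, lower in 9 and equal in 1, with a median difference of 0.284 points. Over the other autosomal tiles the median was 0.079 points and 58.8% were higher.

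No HoxB tile or position passed the test between the genotypes. edgeR's quasi-likelihood test on methylated and unmethylated reads, adjusted by Benjamini-Hochberg over all 24319 autosomal tiles, called 0 of the 22 HoxB tiles at 0.05, where it called 0.0% of all tiles. It called 0 of the 176 HoxB positions, where it called 0.000356% of the 280635 autosomal positions. At an unadjusted p under 0.05, edgeR gave 0 HoxB tiles (1.59% of all tiles) and 0 HoxB positions (0.266% of all). limma on arcsine levels also called 0 of 21 tiles and 0 of 125 positions, with 0 tiles (3.09% of all) and 3 positions lower in knock-in cells (2.69% of all, both directions) at an unadjusted p under 0.05. All edgeR adjusted p-values in the cluster were 1. Without WT2, edgeR still called 0 tiles, while 2 HoxB tiles higher and 1 lower had an unadjusted p under 0.05, beside 1.74% of all tiles. The spread in that fit comes from the knock-in libraries alone, and WT1 is assumed to vary like them.

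Groups that did not overlap were also counted. In 3 of 22 HoxB tiles (13.6%) each knock-in level exceeded each wild-type level, beside 8.98% of all tiles, and in 1 (4.55%) each was lower, beside 3.61%. With group means at least 10 points apart as a further condition, 2 tiles were higher (9.09%, beside 2.37% of all tiles) and 0 lower (beside 0.621%). At single positions 5 of 176 were higher (2.84%, beside 2.38%) and 3 lower (1.7%, beside 0.987%). For positions the shares were near the background, and for tiles they rest on counts of 3 or fewer.

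**Figure D3:**
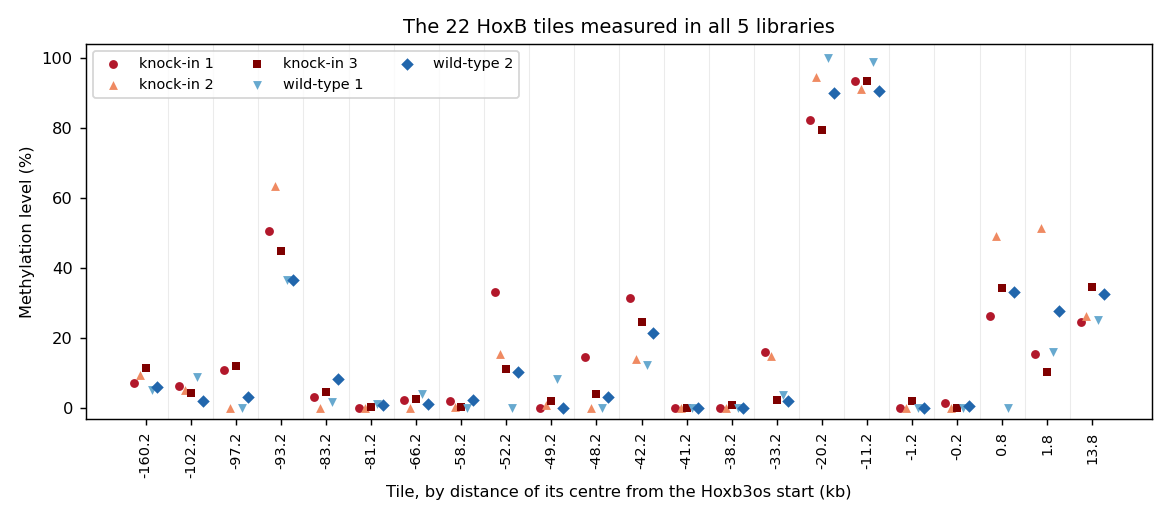
Methylation level (%) of each of the 22 HoxB tiles in all 5 libraries, ordered along the cluster and labelled by the distance of the tile centre from the Hoxb3os start in kb. Each point is a library, and points of a tile are set side by side. A reader should see the libraries close together at most low tiles and far apart at some others. At the tile 0.792 kb from the Hoxb3os start they run from 0% to 49.1%, over 3 shared CpGs.

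The tile whose groups lay farthest apart without overlap was chr11:96121000-96121999, an intermediate tile with 7 shared positions between the low stretches of the cluster. Knock-in levels were 50.6%, 63.6% and 44.9% and wild-type levels 36.6% and 36.7%, over 227 to 853 reads. The lowest knock-in library lay 8.17 points above the higher wild-type library, and the difference of means was 16.4 points (edgeR unadjusted p = 0.533, adjusted p = 1). It stayed between 11.1 and 20.4 points when any 1 library was left out.

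The 7 positions of that tile did not move together. The first, chr11:96121859 on the forward strand, had 52.4%, 41.2% and 33.5% in knock-in and 44.4% and 52.2% in wild-type libraries, so the groups overlapped. At chr11:96121907 on the reverse strand the levels were 50.0%, 100% and 52.9% in knock-in and 10.5% and 28.2% in wild-type libraries. This was the largest difference among the HoxB positions whose groups did not overlap, 48.3 points, at 17 to 70 reads per library (edgeR unadjusted p = 0.198, adjusted p = 1).

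In KI2 the strands of this tile went apart. All 3 reverse-strand positions had 100% over 17 reads each, whereas the 4 forward-strand positions had 41.2%, 58.0%, 43.1% and 83.8% over 65 to 69 reads. The C at chr11:96121902 on the forward strand and that at chr11:96121903 on the reverse strand belong to the same CpG, and KI2 had 43.1% and 100% at these. The largest gap between strands in the 12 CpGs read on both strands in all 5 libraries was 56.9 points in this library and 17.7 to 39.9 points in the others. The median gap was 0 to 1.01 points in every library.

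**Figure D4:**
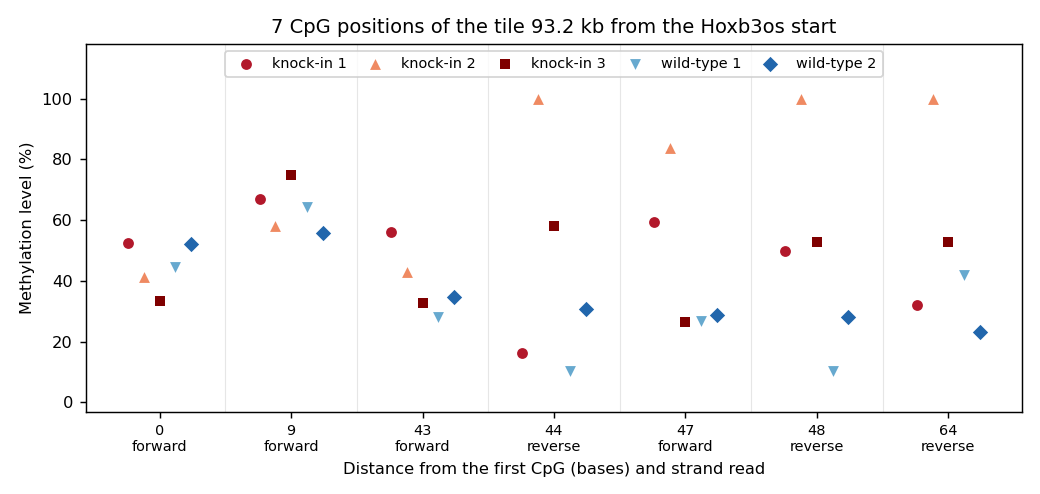
Methylation level (%) in all 5 libraries at the 7 shared CpG positions of the tile 93.2 kb from the Hoxb3os start, towards Hoxb13. Positions are given by distance from the first in bases and by the strand read. A reader should see KI2 at 100% at the 3 reverse-strand positions and no common order of the groups at the first position.

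A neighbouring tile had a wide spread of the same library. At chr11:96125000-96125999, 5 positions were shared by all libraries but WT1. KI2 had 91.0% over 100 reads, and KI1, KI3 and WT2 had 36.3%, 29.0% and 23.6%. Its spread of 67.4 points was the widest of the 35 tiles compared in these 4 libraries. At 4 of its 5 positions KI2 had 100%, over 10 to 34 reads, on both strands. KI2 was the highest library at both tiles. Over the 7 CpGs of the second tile shared by the deep libraries, KI1 had 31.5%, KI3 23.8% over 404 reads and WT2 26.5% over 136 reads, so WT2 lay between the knock-in libraries.

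The other tile with separated groups was chr11:96162000-96162999, near the far end of the longest low stretch. Its 4 positions had 33.1%, 15.4% and 11.2% in knock-in and 0% and 10.5% in wild-type libraries, over 130 to 717 reads. The nearest libraries of the groups lay 0.692 points apart. The difference of 14.7 points had the lowest edgeR p of the cluster's tiles (unadjusted p = 0.111, adjusted p = 1) and was 8.04 points without KI1 and 9.43 points without WT1. Its position chr11:96162130 on the reverse strand had 34.9%, 54.5% and 20.1% in knock-in and 0% and 9.09% in wild-type libraries.

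Close to the Hoxb3os start, chr11:96215000-96215999 had the largest difference of means, 20.0 points. Levels were 26.4%, 49.1% and 34.4% in knock-in and 0% and 33.3% in wild-type libraries, at 3 positions and 86 to 576 reads (edgeR unadjusted p = 0.172, adjusted p = 1). The groups overlapped, and the difference was 3.29 points without WT1. WT1 had 0% at these 3 positions but 20.8% over 250 reads at the 14 CpGs of this tile shared by the deep libraries. There KI1 had 30.1%, KI3 23.5% and WT2 15.0%, so WT1 lay between WT2 and KI3. This tile begins less than 1 kb from the almost unmethylated Hoxb3os start, where the tile at chr11:96214000-96214999 had 0% to 1.42% in the 5 libraries.

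The next tile, chr11:96216000-96216999, had 15.5%, 51.5% and 10.3% in knock-in and 16.0% and 27.9% in wild-type libraries. Its difference was 3.81 points and turned to -9.07 points without KI2. Over the 8 CpGs of this tile shared by the deep libraries, KI1 had 9.14%, KI3 6.47% and WT2 14.9%. Their mean of 10.2% made the tile low in that view, and WT1 had 10.5% over 191 reads there. The values of both tiles in all 5 libraries rest on 3 positions each, all on the forward strand near their common border. Hoxb2, which contains the Hoxb3os start, and Hoxb1 are the genes at this end.

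The remaining intermediate tiles had overlapping groups. The tile at chr11:96172000-96172999 had 31.5%, 14.2% and 24.6% in knock-in and 12.5% and 21.6% in wild-type libraries. Its difference was 6.40 points, with 1.88 points without WT1, 2.38 points without KI1, 11 points without KI2 and 10.9 points without WT2. The tile at chr11:96228000-96228999, which follows the Hoxb1 start, had 24.6%, 26.4% and 34.6% against 25.2% and 32.7%, a difference of -0.38 points. It ran from -4.14 points without WT1 to 3.38 points without WT2 and was 0.70 points without KI2. Within that last tile single positions were far apart: chr11:96228258 had 60.3% to 100% and chr11:96228236 had 0% to 23.5%.

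Of the 2 high tiles measured in all 5 libraries, the first lay at chr11:96194000-96194999. Knock-in levels were 82.3%, 94.7% and 79.4% and wild-type levels 100% and 90.1%, over 126 to 465 reads at 6 CpGs. KI2 lay between the wild-type libraries. The difference of -9.63 points was the largest towards lower knock-in levels (edgeR unadjusted p = 0.204, adjusted p = 1), and it was -14.3 points without KI2 and -4.70 points without WT1. The positions chr11:96194238 and chr11:96194240 here had the largest lower values without overlap, -17.5 and -16.0 points. At the first the levels were 75.7%, 84.0% and 74.7% in knock-in and 100% and 91.2% in wild-type libraries.

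The other high tile, chr11:96203000-96203999, had 93.6%, 91.3% and 93.5% against 98.7% and 90.6%. Its difference was -1.91 points and turned to 2.14 points without WT1. On the Hoxb13 side of the first high tile, with unmeasured DNA between, the nearest such tile was chr11:96181000-96181999, at 16.0%, 15.0% and 2.42% in knock-in and 3.75% and 2.13% in wild-type libraries. In this tile KI1 had methylated reads at all 10 positions, while the other 4 libraries had none at the first 6. WT1 had 3.75% at these 10 positions but 12.5% over 327 reads at the 21 CpGs of this tile shared by the deep libraries. There KI1 had 13.03%, KI3 2.01% and WT2 0.793%, so WT1 lay close to KI1 and above KI3. At chr11:96181621 on the forward strand, within this tile, the groups did not overlap. Levels at that position were 44.4%, 33.3% and 5.13% in knock-in and 4.35% and 0% in wild-type libraries, and KI3 lay close to WT1. On the Hoxb1 side of the second, beyond the methylated tiles seen in the deep libraries, the low tile chr11:96213000-96213999 had 2.20% in KI3 and 0% in the other 4 libraries.

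Among the other low tiles was the tile with 88 listed positions, chr11:96133000-96133999. It had 0.248%, 0.186% and 0.474% in knock-in and 1.31% and 1.01% in wild-type libraries over 21 shared CpGs, the only tile with all knock-in libraries lower (difference -0.86 points, edgeR unadjusted p = 0.216, adjusted p = 1). In the same long low stretch, chr11:96148415 on the reverse strand had 0% in KI1 to KI3 over 27 to 178 reads, and 8.57% and 3.77% in WT1 and WT2 over 35 and 53 reads. It had the lowest edgeR p of the cluster's positions (unadjusted p = 0.0592, adjusted p = 1). The tiles at chr11:96165000-96165999 and chr11:96131000-96131999 had differences of -3.19 and -2.52 points with overlapping groups. The first turned to 0.97 points without WT1, and the second to 0.67 points without WT2. Another low tile, chr11:96054000-96054999 near the Hoxb13 end, was named after its values were seen, because its groups did not overlap: it had 7.30%, 9.52% and 11.7% in knock-in and 5.13% and 6.21% in wild-type libraries. Its position chr11:96054992 had 9.88%, 14.5% and 11.2% against 0% and 0%.

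In 1 tile, chr11:96173000-96173999, all 6 CpGs were at 0% in every library. Its 117 to 1195 reads allow a level of up to 0.251% in KI3, the deepest, and up to 2.56% in WT1.

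The cluster was compared with other CpG-dense DNA of the same libraries, using tiles with 30 or more listed positions. Of the 13 dense HoxB tiles, 8 had at least 3 positions shared by all 5 libraries and were compared. Their mean levels were 15.4%, 14.4% and 11.8% in KI1 to KI3, and 14.7% and 12.6% in WT1 and WT2. The 11221 other dense autosomal tiles had 3.44%, 3.52% and 3.16%, and 2.95% and 3.08%. HoxB lay above in 5 of 5 libraries, by 10.6 ± 1.44 points (SD, n = 5), and by 19.4 points at a minimum of 20 reads. The exact sign-flip permutation test, 2-sided over the 5 libraries, gave p = 0.063, the smallest it allows, so it cannot pass 0.05. All 5 libraries measured the same tiles, so this test asks only whether the libraries agree. It takes no account of the spread between tiles and cannot say whether the 8 HoxB tiles differ from other dense tiles beyond that spread.

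Among the 8 tiles compared, the size of that difference rested on 1. A further methylated dense tile, chr11:96207000-96207999, had 88.3%, 89.0% and 84.8% in KI1, KI3 and WT2 over 38 CpGs. It did not enter because too few of its positions were shared by all 5 libraries. Without the high tile at chr11:96194000-96194999, the 7 other tiles compared had 5.86%, 2.92% and 2.17%, and 2.55% and 1.53%. The difference was then -0.221 points and positive in 1 of 5 libraries. This is a description with no test, since the tile was left out for its level while the high tiles elsewhere stayed in. High dense tiles are uncommon elsewhere too: 192 of 11221 (1.71%) reached 80%, against 1 of 8 in HoxB (12.5%). The median over dense tiles, on which 1 tile has little weight, was 4.34%, 0.093%, 2.57%, 2.53% and 1.75% in HoxB in KI1 to KI3, WT1 and WT2. Elsewhere it was 0.146%, 0%, 0.121%, 0% and 0.082%, so the HoxB median was the higher in 5 of 5 libraries.

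The HoxA and HoxD clusters, placed in mm9 by 6 and 7 of their promoters, gave a closer comparison. Their 10 and 14 dense tiles had mean levels of 10.5% to 12.7% and 3.06% to 5.44%. HoxB lay above HoxA by 2.62 ± 1.85 points and above HoxD by 9.25 ± 1.80 points (SD, n = 5), each in 5 of 5 libraries with an exact sign-flip permutation p of 0.063. These p-values too concern agreement between libraries and not the spread between tiles. In HoxA 1 dense tile had an intermediate level of 79.8%, just under the limit for high, and the next was at 12.8%. With the highest tile of each cluster left out, HoxB lay above HoxA in 1 of 5 libraries and above HoxD in 2 of 5, with mean differences of -0.54 and -0.65 points, again as a description. By the mean of the 5 libraries, the median dense tile was at 2.04% in HoxA and 2.91% in HoxD. It was at 3.25% in HoxB and at 0.172% in the other autosomal dense tiles, so the raised median was not particular to HoxB. The HoxA and HoxD windows cover only the DNA between placed promoters.

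HoxB tiles of lower CpG density were less methylated than elsewhere by their values. The 13 HoxB tiles with 10 to 29 listed positions had 22.1%, 24.8% and 21.1% in KI1 to KI3, and 15.7% and 20.8% in WT1 and WT2, beside 41.9% to 43.8% in the 7635 other autosomal tiles of that density. This difference was not tested.

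**Figure D5:**
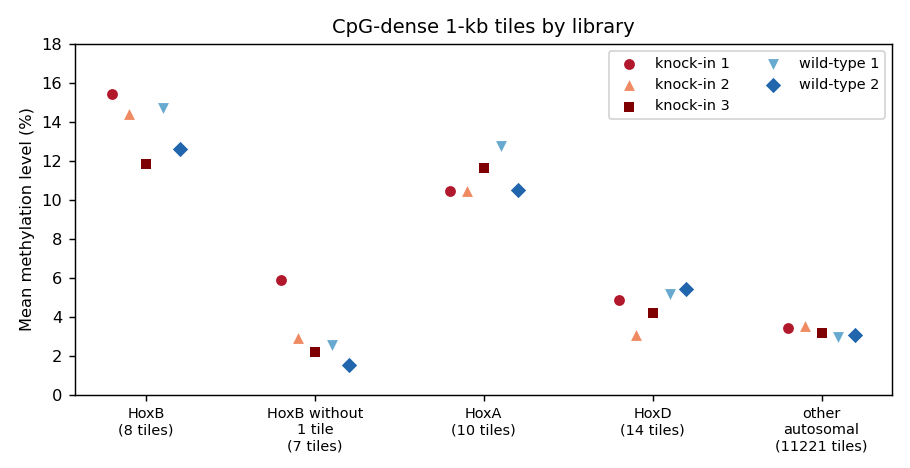
Mean methylation level (%) of CpG-dense 1-kb tiles in each library, for HoxB with and without its highest tile, HoxA, HoxD and the other autosomal tiles. Each point is a library. A reader should see HoxB at 11.8% to 15.4%, above the other autosomal tiles near 3%, and at 1.53% to 5.86% once 1 tile is left out.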

How the data were processed

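DNA from 5 libraries was cut with MspI, which cuts at CCGG, treated with bisulfite and sequenced, per the labels' protocols. The submitters' processing notes name CASAVA 1.7, build mm9 and, without a version, Bismark. The deposited coverage column holds the count of reads per position and strand, at least 10, and the deposited frequency columns give C and T as percent of that coverage. Methylated and unmethylated reads were recovered from them and were whole at 100% of positions in each library. Neither removal of duplicate reads nor a conversion correction is named in the sources used here. Methylation at 27 mitochondrial CpGs was 0.0363% to 0.198%.

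Positions with 10 reads in each library used were joined by position and strand, and pooled in 1-kb tiles of at least 3. Library means over positions are unweighted. Groups were compared by exact permutation tests, by edgeR 4.0.16 (quasi-likelihood, a term per library) and limma 3.58.1 (arcsine levels, leaving out rows with no spread within groups), under R 4.3.3. The fits were tried on simulated data, and limma's rule on such rows was set after they gave false calls there. The spread between simulated libraries was a set value not estimated from these data, so the trial does not give the error rates here. Other steps used scipy 1.17.1, pandas 2.3.3, numpy 2.4.6 and, for plots, matplotlib 3.10.9, in Python 3.11.15. The naming rule took all intermediate tiles, the 3 largest differences and 2 lowest p-values in each direction, tiles on either side of a change between low and high, and the 3 largest non-overlapping CpGs in each direction. The members, lists and tests were chosen with earlier results of these data known.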

Additional observations from a re-analysis of the deposited data

How the results depend on the processing

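Of 72 alternative values, 66 kept their direction and their side of the threshold or stayed near the count, 4 counts moved and 2 differences reversed. Alternatives were a minimum of 20 reads, weighting by reads, both strands summed, 5 CpGs per tile, tiles shifted by 500 bases, limma, another density or gap limit, and leaving out each library. With both strands summed, the difference at low positions was -0.721 points, against 1.15, and the high class gave no value because none of its CpGs was read on both strands. Without the highest dense tile, chosen after seeing the data, the dense difference was -0.221 points, against 10.6. At a minimum of 20 reads it was 19.4 points, over fewer dense HoxB tiles. The count of separated tiles was 1 with 5 CpGs per tile, against 2, and 1 to 5 with a library left out. It was 1 without WT1, 4 without KI2 and 5 without WT2, and both of the last counts include 1 lower tile. The count of edgeR calls was 0 in every alternative run. The mean difference ran from 1.34 points at the positions shared by KI1, KI3 and WT2, also chosen after seeing the data, to 4.28 with strands summed. The intermediate difference ran from 7.66 to 25.9, the latter with strands summed. The strand-summed values rest on only the 12 CpGs read on both strands in all 5 libraries, and those of a class on part of these.

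No paired analysis was possible because the replicate numbers were given in accession order and link no knock-in library to a wild-type one. With 3 and 2 libraries, the exact tests cannot pass 0.05. In wild-type replicate 1 the median shared position had 18.5 reads, so that 1 read moves its level by several points.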
